A study of Rattus norvegicus with 6 samples.

Results

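The neuropoietic cytokines and the STAT3 pathway were followed through 10 genes, chosen by symbol: the ligands Cntf, Lif, Il6 and Osm, the receptor subunits Il6st, Lifr, Osmr and Cntfr, the transcription factor Stat3 and its inhibitor Socs3. They are 10 of 63280 gene symbols on the array, and each was measured by 1 transcript cluster, so no choice between clusters was needed. The samples are lumbar dorsal root ganglia (levels 3 to 6 of both sides, pooled within each rat) of 6 male Sprague-Dawley rats. The 3 diabetic rats had received a single intraperitoneal dose of 65 mg/kg streptozotocin, which kills pancreatic beta cells, 8 weeks before, and their non-fasting blood glucose had reached at least 16.7 mM after 1 week. The 3 control rats had received the citrate buffer alone. Streptozotocin models insulin deficiency, and the ganglion samples mix neurons, satellite glia, Schwann cells, vessels and immune cells. One array was run per rat, so each value is 1 animal.

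Cytokines of this family signal through a shared subunit, gp130, which is the product of Il6st. CNTF binds the CNTFR anchor and then gp130 with LIFR, LIF uses LIFR with gp130, oncostatin M uses OSMR or LIFR, and interleukin 6 pairs gp130 with its own receptor. Janus kinases then phosphorylate STAT3, which enters the nucleus and induces genes, among them Socs3, whose product shuts the receptor off. In peripheral nerve, CNTF is known as a product of myelinating Schwann cells, while LIF and interleukin 6 are known to appear after axon injury and to drive part of the response of the neuron cell bodies.

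The sequences just upstream of 3 genes are shown because the results turn on Cntf, on the pathway's feedback gene Socs3 and on Reg3b, the STAT3-inducible gene that differed most between the groups. Each line gives the 250 bases before the annotated start, taken from RefSeq (build GRCr8), 5′ to 3′. Capitals mark the STAT palindrome TTCNNNGAA, a pattern that reads alike on both strands.
Cntf, chr1:219314536-219314785, minus strand: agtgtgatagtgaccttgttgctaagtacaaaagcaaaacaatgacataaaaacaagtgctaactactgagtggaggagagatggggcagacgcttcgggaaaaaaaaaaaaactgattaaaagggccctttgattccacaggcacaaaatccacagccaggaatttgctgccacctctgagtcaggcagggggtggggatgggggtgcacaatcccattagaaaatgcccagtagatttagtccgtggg
Socs3, chr10:103694769-103695018, minus strand: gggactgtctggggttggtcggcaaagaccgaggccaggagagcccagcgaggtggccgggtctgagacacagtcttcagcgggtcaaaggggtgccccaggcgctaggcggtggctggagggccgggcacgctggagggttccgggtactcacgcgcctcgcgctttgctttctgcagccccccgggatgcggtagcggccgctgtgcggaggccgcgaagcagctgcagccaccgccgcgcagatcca
Reg3b, chr4:112419526-112419775, plus strand: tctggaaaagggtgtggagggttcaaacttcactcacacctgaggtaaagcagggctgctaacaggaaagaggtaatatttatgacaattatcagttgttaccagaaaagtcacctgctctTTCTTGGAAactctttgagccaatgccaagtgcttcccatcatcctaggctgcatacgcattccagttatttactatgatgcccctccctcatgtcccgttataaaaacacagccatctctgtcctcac
The Reg3b window held 1 match, TTCTTGGAA, from 129 to 121 bases before the start. The 2 other windows held none. Reg3a, the other STAT3-inducible gene that passed the test, also had none in either of its 2 listed windows, and neither did those of Il6, Il6st, Lifr, Osmr and Stat3, so 0 of the 7 genes of the set with a sequence had a match. Of 33469 RefSeq windows of the same length, 7.67% held one. Whether an annotated start is the promoter used in ganglia was not checked. Sites outside these 250 bases were not searched, so a window without a match does not show that a gene lacks such sites. Of the list of STAT3-induced genes taken up below, only Reg3a and Reg3b, the 2 that passed the test, were searched. A match describes the letters and is not a measured binding site, and its part in the Reg3b values was not tested.

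The tissue label was checked against defining markers, and all 9 sensory neuron markers were above the background limit on every array. That limit is the 90th percentile of 1153 negative control probe sets, and it lay between 6.06 and 6.67 on the log2 scale. Control replicate 3 stood apart from the other arrays on the first principal component (57.9, against -35.3 to 13.8), which held 40.0% of the variance, and it had the highest background limit. In control replicate 2 the mean of 5 skeletal muscle markers was 6.23, against 4.76 to 4.88 on the other arrays. Across 68842 clusters, limma called 4 past an adjusted p of 0.05, or 0.00581% (3 higher, 0.00436%, and 1 lower, 0.00145%), and 5402 had an unadjusted p under 0.05, or 7.85%. Of the latter, 1881 were higher and 3521 lower in diabetic ganglia, a split that became 3707 and 1923 after each array was centred on its median and 2577 and 2707 after quantile normalization. Signals of different clusters depend on their probes, so each gene is compared only with itself and with the background limit.

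Of the 10 genes, 6 were above the background limit on every array: Cntf, Il6st, Lifr, Osmr, Cntfr and Stat3. The other 4, Lif, Il6, Osm and Socs3, were below it on every array. None passed an adjusted p of 0.05, and 1, Cntf, had an unadjusted p under 0.05. In 13.3% of all clusters the groups' arrays did not overlap (8.32% lower and 4.96% higher in diabetic ganglia), and among the 10 genes this held for Cntf alone. Counts of 1 in 10 lie near the shares over all clusters, so they do not set these genes apart.

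**Figure D1:**
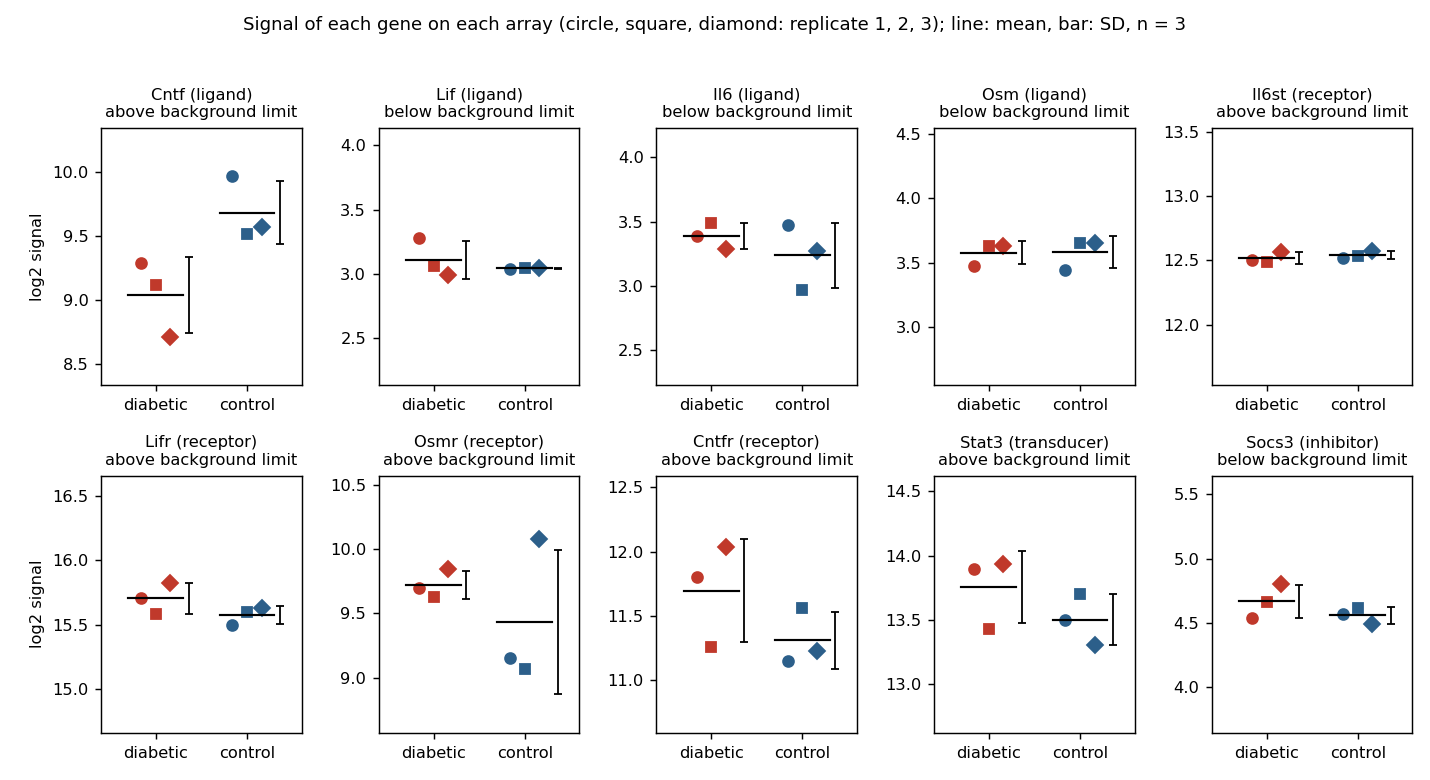
Log2 signal of each of the 10 genes on the 6 arrays, diabetic left and control right; points are rats, the line is the mean and the bar the SD (n = 3), and every panel spans the same 2 log2 units. Cntf is the gene whose diabetic points (8.72 to 9.29) all lie below its control points (9.51 to 9.96), and Osmr shows 1 control point far from the others.

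Among the ligands, only Cntf was detected, and its signal was lower in diabetic ganglia without passing the test over all clusters. Cntf, ciliary neurotrophic factor, supports motor and sensory neurons. Its signal was 9.29, 9.11 and 8.72 in diabetic replicates 1, 2 and 3, against 9.96, 9.51 and 9.57 in control replicates 1, 2 and 3. Every diabetic array lay below every control array. The means were 9.04 ± 0.29 in diabetic and 9.68 ± 0.25 in control ganglia (SD, n = 3 each), so the diabetic level was 64.1% of control. The log2 difference was -0.64 (SE 0.19, 95% interval -1.07 to -0.22), which did not pass over all clusters (limma adjusted p = 0.55). An exact permutation test over the 6 rats, two-sided, gave p = 0.1, the smallest that 3 against 3 allows. The cluster holds 50 probes and lies on chromosome 1, at 229599007 to 229601482 on the minus strand, as the deposited annotation lists it. Its build is not given in the sources used here. The zinc finger gene Zfp91 lies 374 bases away on the same strand. Zfp91 averaged 10.54 ± 0.04 in diabetic and 10.53 ± 0.11 in control ganglia (SD, n = 3 each), a log2 difference of 0.01 (SE 0.12).

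Markers of several cell types were lower beside Cntf, among them those of myelinating Schwann cells, the known source of CNTF. Of 11 markers, 10 had a lower mean in diabetic ganglia, 9 without overlap between the groups, and 0 passed an adjusted p of 0.05 over all clusters. Over all 68842 clusters, 42521 had a lower mean and 8.32% were lower without overlap. Among the 16443 clusters above the background limit on all arrays of a group, 6936 had a lower mean and 900 were lower without overlap. The mean of the 11 markers was 10.64, 11.08 and 10.69 in diabetic replicates 1, 2 and 3, against 11.52, 11.47 and 11.49 in control replicates 1, 2 and 3. Mal, a myelin proteolipid, averaged 11.28 in diabetic and 12.61 in control ganglia (log2 difference -1.32, SE 0.13, limma adjusted p = 0.057), which misses the threshold. The claudin gene Cldn19 averaged 9.91 in diabetic and 10.78 in control ganglia. Pmp22, a compact myelin gene, averaged 15.58 in diabetic and 15.70 in control ganglia. Pmp2 differed most of the 11 markers, at 11.04 in diabetic and 13.45 in control ganglia (log2 difference -2.42, SE 0.38, limma adjusted p = 0.50). Mag was the 1 marker below the background limit on every array.

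The means of some other lists were lower too. That of 6 fibroblast markers differed by -0.89, more than the -0.69 of the Schwann list. Of these 6 markers, 4 were lower and 2 higher. The collagen gene Col1a1 differed by -2.02 and Col1a2 by -1.59, while Dcn, the decorin gene, differed by 0.25. The mean of 6 satellite glia markers differed by -0.33, with 4 of the 6 lower. The satellite glia mean was 10.11 to 10.79 on diabetic and 10.49 to 11.27 on control arrays. Kcnj10, a glial potassium channel gene, averaged 7.65 in diabetic and 8.50 in control ganglia without overlap (limma adjusted p = 0.53), and the cadherin gene Cdh19 averaged 13.02 in diabetic and 13.83 in control ganglia. Glul, the glutamine synthetase gene, averaged 14.55 in diabetic and 14.36 in control ganglia. The part of these cells in the Cntf values was not tested.

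Cntf taken relative to the 11 Schwann cell markers overlapped between the groups. The exact permutation test of 3 against 3 cannot give a p under 0.1, so it could not call a difference at 0.05. The log2 signal of Cntf minus the marker mean was -1.36, -1.97 and -1.98 in diabetic replicates 1, 2 and 3, against -1.56, -1.96 and -1.92 in control replicates 1, 2 and 3. The difference of the means was 0.05 (exact permutation test, two-sided, p = 1, n = 3 each), and it ran from -0.16 without diabetic replicate 1 to 0.17 without control replicate 1. The marker mean is pulled down in diabetic ganglia by Pmp2, whose log2 difference was -2.42, against a list median of -0.51. Cntf was not compared with the list without Pmp2. Within the diabetic group the order was not shared: replicate 1 had the highest Cntf signal and the lowest marker mean. In whole ganglia, fewer cells of a type and less RNA per cell cannot be told apart.

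**Figure D2:**
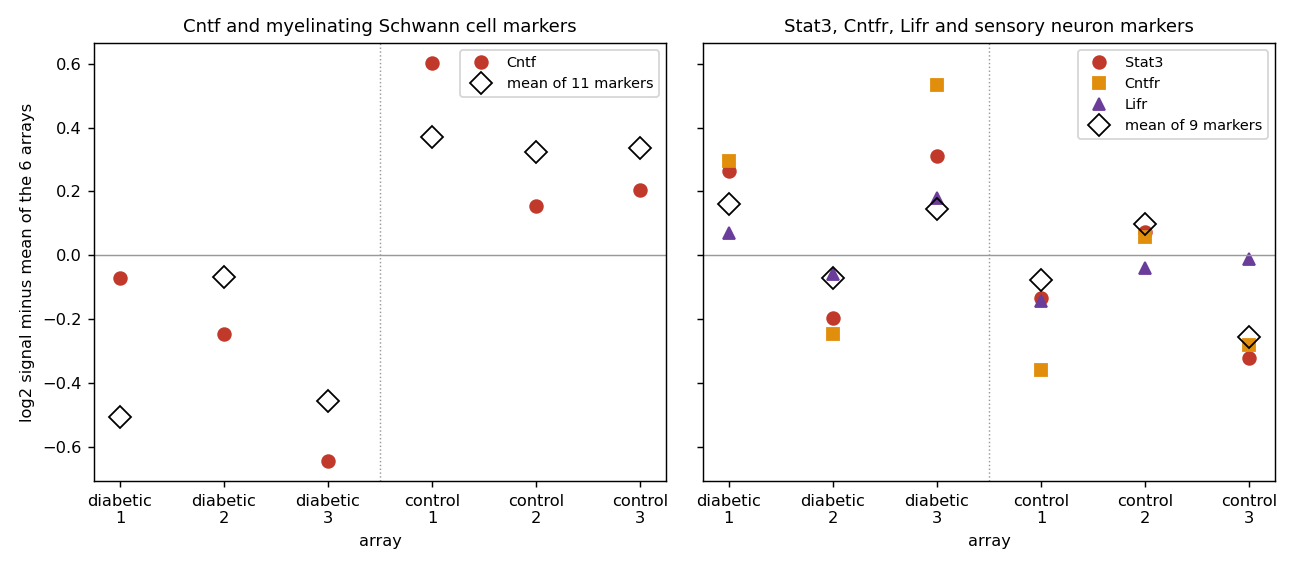
Left, Cntf and the mean of 11 myelinating Schwann cell markers; right, Stat3, Cntfr and Lifr with the mean of 9 sensory neuron markers; each as log2 signal minus its own mean over the 6 arrays, diabetic arrays left of the dotted line and control arrays right. Cntf and the Schwann markers are below their means on all 3 diabetic arrays and above them on all 3 control arrays, while Stat3 and Cntfr are high on diabetic replicates 1 and 3 and low on diabetic replicate 2.

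The injury-associated ligands were not detected in either group. Lif, leukaemia inhibitory factor, was at 3.28, 3.06 and 2.99 in diabetic replicates 1, 2 and 3, against 3.04, 3.05 and 3.05 in control replicates 1, 2 and 3. Il6, interleukin 6, was at 3.39, 3.49 and 3.28 in diabetic replicates 1, 2 and 3, against 3.47, 2.97 and 3.27 in control replicates 1, 2 and 3. Osm, oncostatin M of myeloid cells, was at 3.48, 3.63 and 3.63 in diabetic replicates 1, 2 and 3, against 3.44, 3.66 and 3.66 in control replicates 1, 2 and 3. All of these values lie more than 2 log2 units under the lowest background limit, and the groups overlapped for all 3 genes. No fold is given, since a low transcript level cannot be seen at such signals. Of 8 further ligands and ligand partners of the family, 0 were above the limit on all arrays of a group. Ctf1, cardiotrophin 1, lay at the limit, with means of 6.07 in diabetic and 6.33 in control ganglia, above it on 1 diabetic and 2 control arrays. Il27 averaged 3.40 in diabetic and 3.55 in control ganglia.

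All 4 receptor subunits were detected, and none passed the test. The annotation places Il6st on chromosome 2 at 44278748 to 44323110 (plus strand), and Lifr (56424100 to 56489346, plus strand) and Osmr (56109044 to 56164259, minus strand) near each other on the same chromosome. Cntfr lies on chromosome 5 at 58041631 to 58070125 (minus strand), and Stat3 on chromosome 10 at 88790401 to 88842385 (minus strand). Il6st, the gp130 subunit that the whole family shares, had the smallest spread of the detected genes. It measured 12.50, 12.48 and 12.57 in diabetic replicates 1, 2 and 3, against 12.52, 12.54 and 12.57 in control replicates 1, 2 and 3. The groups overlapped, and the 6 arrays spanned 0.09 log2 units. Its difference was -0.03 (SE 0.11, 95% interval -0.28 to 0.23, limma adjusted p = 0.96), so changes larger than 0.28 in either direction lie outside the interval. Lifr, the subunit of the LIF and CNTF receptors, measured 15.71, 15.58 and 15.82 in diabetic replicates 1, 2 and 3, against 15.50, 15.60 and 15.63 in control replicates 1, 2 and 3. Diabetic replicate 2 lay among the controls, and the difference was 0.13 (SE 0.12, 95% interval -0.15 to 0.41, limma adjusted p = 0.78).

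Cntfr, the anchored alpha subunit that gives CNTF its specificity and that neurons are known to express, was high on 2 of 3 diabetic arrays. It measured 11.80, 11.26 and 12.04 in diabetic replicates 1, 2 and 3, against 11.15, 11.56 and 11.22 in control replicates 1, 2 and 3. Diabetic replicate 2 lay below control replicate 2, so the groups overlapped. The means were 11.70 ± 0.40 in diabetic and 11.31 ± 0.22 in control ganglia (SD, n = 3 each), a difference of 0.39 (SE 0.21, 95% interval -0.10 to 0.87, limma adjusted p = 0.67). Without diabetic replicate 2 the difference was 0.61 (limma adjusted p = 0.40), and without diabetic replicate 3 it was 0.22 (limma adjusted p = 0.97).

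Osmr, the subunit for oncostatin M and, with IL31RA, for the itch cytokine interleukin 31, had the widest control spread of the 10 genes. It measured 9.70, 9.63 and 9.84 in diabetic replicates 1, 2 and 3, against 9.15, 9.07 and 10.08 in control replicates 1, 2 and 3. Control replicate 3, the array that stood apart, was higher than every diabetic array, while the other controls were lower than every diabetic array. The means were 9.72 ± 0.11 in diabetic and 9.43 ± 0.56 in control ganglia (SD, n = 3 each), a difference of 0.29 (SE 0.25, 95% interval -0.28 to 0.87, limma adjusted p = 0.76). Without control replicate 3 the difference was 0.61, at an unadjusted p of 0.0023 in limma, and still did not pass over all clusters (adjusted p = 0.79). Without control replicate 2 it was 0.11 and without control replicate 1 it was 0.15.

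Markers of the itch-sensing neurons known to express Osmr did not move one way. Il31ra, the partner subunit, averaged 13.17 in diabetic and 12.80 in control ganglia (log2 difference 0.37, SE 0.18, limma adjusted p = 0.65), with 0.23 without diabetic replicate 1. The somatostatin gene Sst averaged 11.40 in diabetic and 11.08 in control ganglia, while the leukotriene receptor gene Cysltr2 averaged 7.74 in diabetic and 9.12 in control ganglia (log2 difference -1.38, SE 0.35, limma adjusted p = 0.53). Of the 6 markers, 4 had a higher and 2 a lower mean, and Nppb was below the limit on every array. The mean of the list was 8.86 to 8.99 on diabetic and 8.84 to 9.19 on control arrays, and its part in the Osmr values was not tested. Of the other receptors of the family, Il6r, Il11ra1 and Il27ra were below the background limit on every array. Lepr, the leptin receptor, averaged 7.31 in diabetic and 7.57 in control ganglia, and Sort1, a sorting receptor that also binds members of this cytokine family, had a log2 difference of 0.22 (SE 0.18). In this list of 6, 0 had an unadjusted p under 0.05.

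Stat3, the transcription factor that the receptors activate, followed the same arrays as Cntfr. It measured 13.89, 13.43 and 13.94 in diabetic replicates 1, 2 and 3, against 13.50, 13.70 and 13.31 in control replicates 1, 2 and 3. Diabetic replicates 1 and 3 were the highest of all, and diabetic replicate 2 lay below 2 of the controls. The means were 13.75 ± 0.28 in diabetic and 13.50 ± 0.20 in control ganglia (SD, n = 3 each), a difference of 0.25 (SE 0.18, 95% interval -0.15 to 0.66, limma adjusted p = 0.72). Without diabetic replicate 2 it was 0.41 (limma adjusted p = 0.44), and without control replicate 3 or diabetic replicate 3 it was 0.16. These are RNA levels, and the phosphorylated, active form of the protein was not measured.

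Sensory neuron markers moved over the arrays in a like way. Of 9 markers, 8 had a higher mean in diabetic ganglia, and 0 passed an adjusted p of 0.05. Their mean was 14.64, 14.40 and 14.62 in diabetic replicates 1, 2 and 3, against 14.40, 14.58 and 14.22 in control replicates 1, 2 and 3. As for Stat3, diabetic replicates 1 and 3 were the highest, then control replicate 2, and control replicate 3 the lowest. The mean of 5 markers of non-myelinating and immature Schwann cells was 13.82, 13.45 and 13.84 in diabetic replicates 1, 2 and 3. In control replicates 1, 2 and 3 it was 13.59, 13.80 and 13.69. There too diabetic replicates 3 and 1 were the highest, then control replicate 2, while diabetic replicate 2 was the lowest. Taken relative to the sensory neuron mean, Stat3 differed by 0.10 (exact permutation test, two-sided, p = 0.4, n = 3 each), Cntfr by 0.23 (exact p = 0.3) and Lifr by -0.03 (exact p = 0.9). This measure was added after the values had been seen. Without it the same exact test already gave p = 0.3 for Stat3, 0.2 for Cntfr and 0.3 for Lifr, and it cannot go under 0.1. The part of neurons or Schwann cells in these values was not tested. Among the sensory neuron markers, Isl1, a transcription factor of these neurons, averaged 12.08 in diabetic and 11.65 in control ganglia. The neuronal RNA-binding gene Elavl4 averaged 13.72 in diabetic and 13.50 in control ganglia, and the abundant Tubb3 averaged 18.32 in diabetic and 18.29 in control ganglia.

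**Figure D3:**
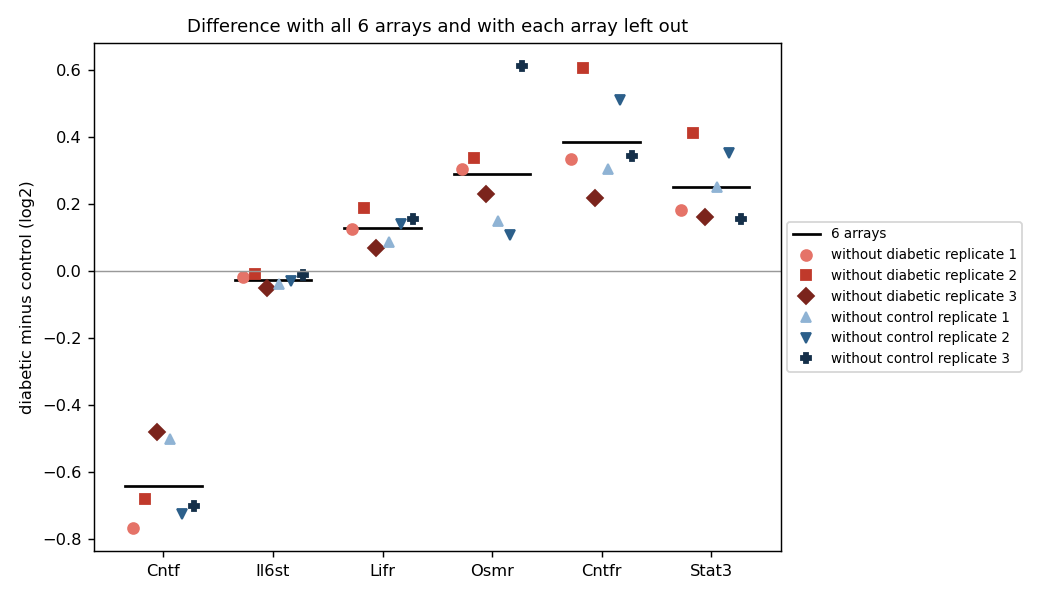
Diabetic minus control (log2) for the 6 detected genes with all 6 arrays (black line) and with each array left out (symbols). Cntf stays between -0.77 and -0.48, Il6st between -0.05 and -0.01, and the values of Osmr and Cntfr spread most, up to 0.61 without control replicate 3 for Osmr and without diabetic replicate 2 for Cntfr.

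The feedback inhibitor was not detected. Socs3 measured 4.54, 4.66 and 4.80 in diabetic replicates 1, 2 and 3, against 4.57, 4.62 and 4.49 in control replicates 1, 2 and 3. All 6 values lay under the background limit and the groups overlapped (limma adjusted p = 0.78), so no fold is given.

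The rest of the signalling chain showed no called difference. Among 10 Janus kinases and other STATs, 0 had an unadjusted p under 0.05, with 7 higher and 3 lower means and a median log2 difference of 0.04, against -0.04 over all clusters and 0.04 over the 16443 above the background limit. Jak1, the kinase that gp130 relies on most, averaged 13.31 in diabetic and 13.25 in control ganglia, and Jak2 averaged 8.76 in diabetic and 8.63 in control ganglia. Stat4 averaged 3.89 in diabetic and 3.73 in control ganglia, below the background limit. Among 15 inhibitors (SOCS, PIAS and phosphatase genes) 0 had an unadjusted p under 0.05, with 11 higher and 4 lower means and a median of 0.12. Pias1, a nuclear STAT inhibitor, averaged 10.40 in diabetic and 10.19 in control ganglia, Socs6 averaged 7.07 in diabetic and 6.78 in control ganglia, and Socs7 averaged 6.69 in diabetic and 6.49 in control ganglia. The phosphatase gene Ptpn11 averaged 10.78 in diabetic and 10.63 in control ganglia.

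Genes known to be induced by STAT3 held 2 called differences, both higher. Of 22 such genes, most of which answer to other signals too, 2 passed an adjusted p of 0.05 and both rose, namely Reg3b and Reg3a. At an unadjusted p under 0.05 there were 6 higher, against 2.73% of all clusters, and 3 lower, against 5.11% of all clusters. Among the 16443 clusters above the background limit the order is the other way, with 1145 higher and 721 lower. The list was written with the rise of the Reg3 genes known, so it is no independent evidence of a direction, and its median log2 difference was 0.07. With single arrays left out, 4 to 7 were higher and 2 to 3 lower.

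Reg3b, a secreted lectin that injured neurons are known to make, measured 9.33, 10.78 and 9.42 in diabetic replicates 1, 2 and 3, against 4.73, 5.23 and 5.68 in control replicates 1, 2 and 3. Reg3a, a related lectin gene, measured 7.38, 7.79 and 7.86 in diabetic replicates 1, 2 and 3, against 5.32, 5.09 and 4.91 in control replicates 1, 2 and 3. Both were above the background limit on all diabetic arrays and below it on all control arrays. Set against that limit in controls, Reg3b rose at least 11.1-fold and Reg3a at least 2.49-fold. The limma test was on the signals themselves and not on these bounds (adjusted p = 0.035 for Reg3b and 0.0053 for Reg3a). Reg3b passed in 1 of the fits with an array left out, the one without diabetic replicate 2, with an adjusted p of 0.024 to 0.24 over these fits, and Reg3a missed without control replicate 2 (limma adjusted p = 0.065). Reg3g, another gene of the family, averaged 3.29 in diabetic and 3.21 in control ganglia, below the limit.

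Of the other 7 genes of the list with an unadjusted p under 0.05, Junb was named by the rule and the rest were chosen after their values were seen. Cebpd, a transcription factor of the acute phase, measured 7.94, 7.34 and 7.80 in diabetic replicates 1, 2 and 3, against 6.96, 7.10 and 7.19 in control replicates 1, 2 and 3. The groups did not overlap, and the difference was 0.61 (SE 0.17, limma adjusted p = 0.53). Vegfa, the vascular growth factor, averaged 8.10 in diabetic and 7.82 in control ganglia. Junb, an AP-1 factor, averaged 4.42 in diabetic and 3.91 in control ganglia and Lbp, an acute phase protein gene, averaged 4.92 in diabetic and 4.48 in control ganglia, both below the background limit on every array. The abundant Mcl1, a survival gene, averaged 12.30 in diabetic and 12.23 in control ganglia, and Hif1a averaged 12.53 in diabetic and 12.47 in control ganglia.

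The 3 lower genes were A2m, Timp1 and Ccnd1. A2m, a protease inhibitor and classical acute phase gene of the rat, measured 6.66, 8.38 and 7.88 in diabetic replicates 1, 2 and 3, against 9.65, 8.45 and 8.83 in control replicates 1, 2 and 3. The difference was -1.34 (SE 0.44, limma adjusted p = 0.58), and -0.85 without diabetic replicate 1. A further cluster of A2m gave means of 7.19 in diabetic and 8.40 in control ganglia, and another lay below the limit at 3.75 in diabetic and 3.82 in control ganglia. Timp1, an inhibitor of matrix proteases, averaged 8.15 in diabetic and 8.97 in control ganglia (log2 difference -0.82, and -0.51 without diabetic replicate 1), and the cyclin gene Ccnd1 averaged 6.56 in diabetic and 7.04 in control ganglia. Fibroblast markers were also lower in 4 of 6, with 0 below the background limit, and their list mean was 8.74 to 9.67 on diabetic and 9.59 to 10.45 on control arrays. Diabetic replicate 1 was lowest in A2m, in Timp1 (7.53) and in the fibroblast markers, whose part in these values was not tested.

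**Figure D4:**
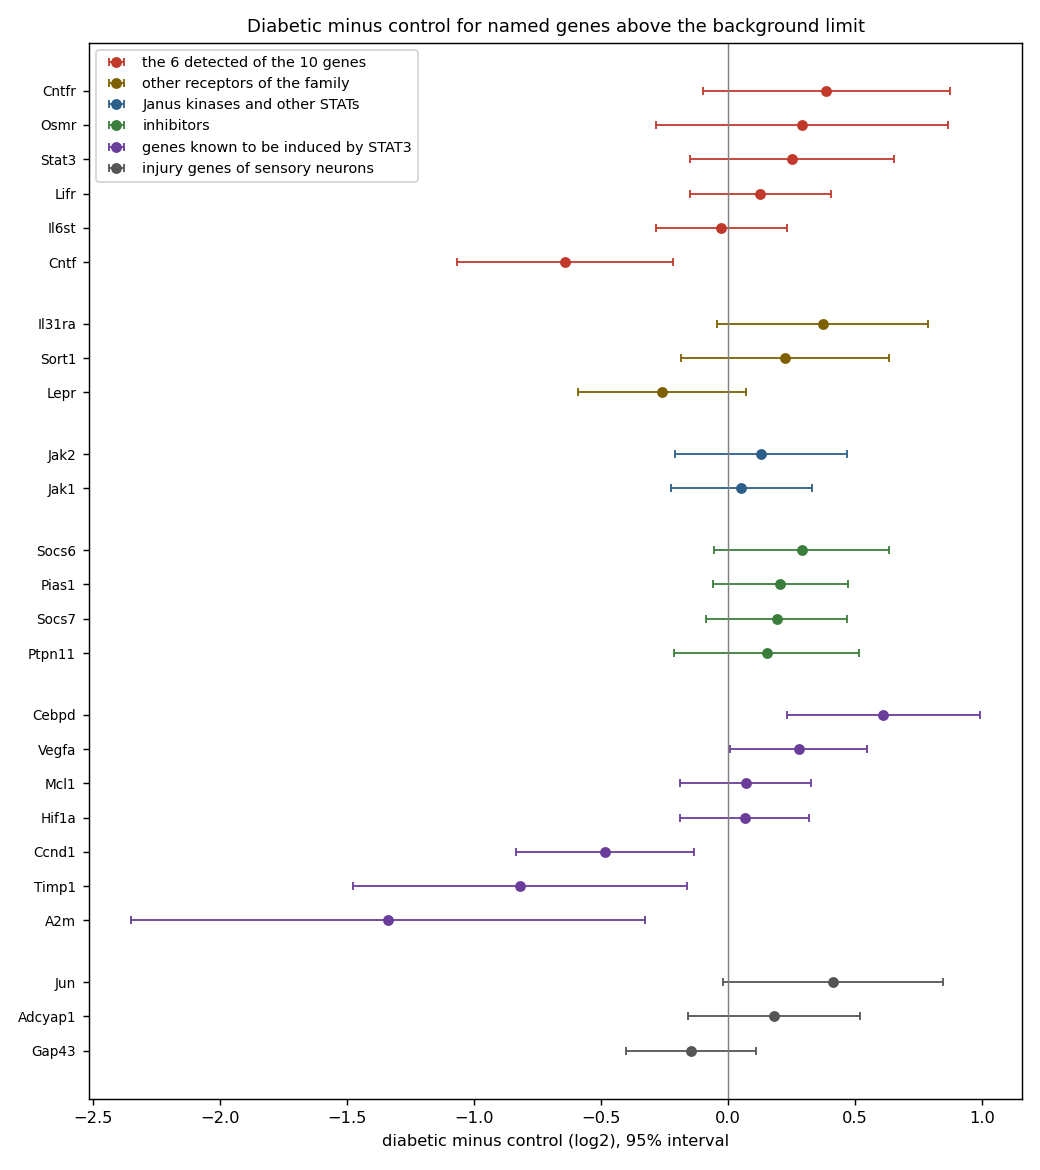
Diabetic minus control (log2) with 95% intervals for the detected genes of the set and those named from the related lists, coloured by list; genes at or under the background limit in a whole group, Reg3a and Reg3b among them, are left out. Cntf, A2m, Timp1 and Ccnd1 have intervals below 0, Cebpd and Vegfa above 0, and no receptor, kinase or inhibitor gene shown has an interval clear of 0.

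Injury genes of sensory neurons, some of which LIF and STAT3 are known to drive, gave 0 calls past an adjusted p of 0.05 among 9. Gal, the neuropeptide galanin, averaged 6.13 in both diabetic and control ganglia, above the limit on 1 diabetic and 0 control arrays. Atf3, the transcription factor that marks injured neurons, measured 4.81, 4.82 and 4.83 in diabetic replicates 1, 2 and 3, against 4.91, 4.68 and 4.79 in control replicates 1, 2 and 3, all below the limit. Sox11, a regeneration factor, averaged 6.15 in diabetic and 5.79 in control ganglia, above the limit on 2 diabetic and 0 control arrays. Sox11 was the 1 gene of the list with an unadjusted p under 0.05 (0.014 in limma). Jun averaged 7.66 in diabetic and 7.25 in control ganglia (log2 difference 0.41, SE 0.19), Adcyap1, the neuropeptide PACAP, averaged 9.66 in diabetic and 9.47 in control ganglia, and the growth cone gene Gap43 averaged 10.97 in diabetic and 11.11 in control ganglia. Vip, Npy and Sprr1a were below the limit on every array.

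Macrophage markers, which belong to cells that can make OSM and interleukin 6, were higher in 6 of 8. Their mean was 5.89 to 6.40 on diabetic and 5.38 to 5.95 on control arrays, so the groups overlapped, and 0 passed an adjusted p of 0.05. Csf1r averaged 8.28 in diabetic and 7.59 in control ganglia, Mrc1 averaged 8.24 in diabetic and 7.58 in control ganglia, and Cd163 averaged 6.58 in diabetic and 5.68 in control ganglia. Control replicate 2 was the lowest array for all 3. Without it the log2 difference was 0.33 for Csf1r, against 0.69 with all arrays, and 0.31 for Mrc1, against 0.67 with all arrays. For Cd163 it was 0.74, against 0.90 with all arrays (limma adjusted p = 0.53 with all arrays). The groups did not overlap for Cd163, which was below the background limit on every control array. Aif1, Itgam and Cd14 were below the background limit on every array, as were Osm and Il6 themselves.

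For the 2 detected genes with the largest spread over the 6 arrays, Cntf and Osmr, the coding genes of most similar pattern were looked up among 9923 detected ones. Nearest to Cntf were Tmem150c (Pearson's r = 0.99, Spearman's rho = 1), Lims2 (r = 0.98, rho = 0.94) and LOC619574 (r = 0.97, rho = 0.83), over 6 arrays. Nearest to Osmr were Ash1l (r = 0.98, rho = 0.94), Cst3 (r = 0.975, rho = 0.83) and Ssu72 (r = 0.97, rho = 0.77). With 6 arrays and so many genes, values of this size are a description only. Cst3, the protease inhibitor cystatin C, averaged 15.71 in diabetic and 15.56 in control ganglia, and Lims2, an adaptor of cell adhesions, averaged 9.43 in diabetic and 9.78 in control ganglia.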

How the data were processed

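Total RNA of lumbar ganglia, 100 ng per rat, was labelled and hybridised to 1 Affymetrix RTA 1.0 array per rat. Each deposited value is a log2 signal of 1 transcript cluster from the authors' gene-level SST-RMA, per the file headers; RMA is also named, without a version, in the submitters' processing notes. RMA can compress differences of dim clusters. The deposited annotation also gives the number of probes of each cluster and other annotation columns. The series' value table held the same numbers (0 differing), and its detection calls were set aside, since all 423480 say absent. No scan or slide batch is given in the sources used here.

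The 1738 control probe sets were left out of the tests, which leaves 68842 clusters. Diabetic minus control was fitted on all of them with limma 3.58.1 in R 4.3.3 (group only, eBayes with intensity trend, two-sided), with Benjamini-Hochberg adjustment over all clusters and a threshold of 0.05. The fit was tested on simulated data. The number of arrays, 3 per group, limits the precision; no counting depth exists for arrays. A gene is called detected when it lies above the 90th percentile of the negative controls on all 3 arrays of a group.

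The genes and lists (70 pathway genes in 6 lists, and cell type markers) were chosen with earlier results of these data known. Named by rule were the 10 genes, from each pathway list those past the threshold, the 3 of smallest p and the 2 of highest mean, with Reg3a, Reg3b, Gal and Atf3, from each marker list the 2 of highest mean and the 2 of smallest p, and the 3 genes of most similar pattern to each of Cntf and Osmr. Other genes named (Cebpd, Vegfa, Timp1, A2m, Ccnd1, Lbp, Reg3g, Pmp2, and those named for lying below the background limit) were chosen after their values were seen. Some genes that the rule names are not reported here. Marker lists without a value in the text showed no called gene. Symbols are those of the deposited annotation, and upstream sequences came from RefSeq (GRCr8) for 7 of the 10 genes.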

Additional observations from a re-analysis of the deposited data

How the results depend on the processing

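None of the 10 genes passed an adjusted p of 0.05 in limma under any of the 15 alternatives, and Cntf was lower in all of them, by -0.77 to -0.48 (adjusted p 0.32 to 0.97). At an unadjusted p under 0.05 the 10 genes gave 2 calls with array weights (Cntf and Cntfr) and 1 to 3 with each array left out: 3 without diabetic replicate 2 (Cntf, Cntfr and Stat3) and 2 without control replicate 3 (Cntf and Osmr). With each array left out, the clusters past the adjusted threshold ran from 1 to 5 and those at an unadjusted p under 0.05 from 3243 to 8441, the pathway genes from 0 to 2 and from 8 to 17, and Cntf relative to the Schwann markers from -0.16 to 0.17. With clusters above the median level, 2 clusters and 1 pathway gene passed, and 3325 clusters had an unadjusted p under 0.05. With clusters above the background limit, 1913 clusters and 7 pathway genes had one. Fewer clusters are tested under both filters. Reg3b missed the threshold with the filter at the median (limma adjusted p = 0.053). Mal passed without the trend (0.029), with array weights (0.032), after quantile normalization (0.039) and with the filter at 6.01 (0.035).

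Differences near 0 changed sign: Il6st was 0.0487 and Nefh 0.0527 after median centring, Lifr was -0.0276 relative to the neuron markers, and with an array left out Jak1 ran from -0.0121 to 0.108, Nefh from -0.0831 to 0.0563 and Tubb3 from -0.0654 to 0.148. The cause was not tested. The replicate numbers were not taken to pair the rats. Deviations of same-numbered arrays correlated at 0.04, -0.12 and -0.13, which shows no pairing but with so few arrays cannot exclude it. With the replicate block, 3 clusters, 0 of the 10 genes and 2 pathway genes passed, and 4682 clusters, 1 of the 10 genes and 9 pathway genes had an unadjusted p under 0.05. Signals below the background limit bound what can be said of Lif, Il6, Osm and Socs3.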
